A study of Mus musculus with 12 samples.

Results

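The contractile genes of smooth muscle cells and myofibroblasts were described by 10 members: the structural genes Acta2, Tagln, Cnn1, Myl9, Myh11, Tpm1, Tpm2 and Des, and the regulators Srf and Myocd. The 10 genes were given by name, out of 21938 protein-coding genes of the annotation, by a rule that uses no measured value. All called peaks within each gene body and 20000 bp on each side of it were read (mm10 coordinates, GENCODE M21). Mouse mesenchymal stem cells (MSCs) kept at 2% oxygen (hypoxia) or 21% oxygen (normoxia), both at 5% CO2 and 37°C, had been profiled by ChIP-seq for acetylated lysine 27 (H3K27ac) and trimethylated lysine 4 (H3K4me3) of histone H3. The labels give bone-marrow MSCs, an age of 3 to 5 months and a sort on day 12. According to the study's methods, the cells came from hind-limb bones and were sorted as CD45-, Ter-119-, Sca-1+ and CD140a+. By the same account, all cells grew at 2% oxygen until the sort. The sorted cells were then split between the 2 oxygen levels and cultured there for a week. The mice were wild-type male C57BL/6N. No genetic alteration or drug is given for these groups, which are distinguished by the oxygen level. There were 12 libraries, 2 for each mark and 2 inputs at each oxygen level, and each mark gave 1 peak list at each oxygen level from both of its libraries.

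Smooth muscle cells and myofibroblasts contract through actin filaments that slide along myosin, with tropomyosin and calponin lying on the actin and desmin filaments linking the contractile apparatus. Serum response factor (SRF) binds a DNA element called the CArG box in front of many of these genes, and its partner myocardin drives the smooth muscle form of the programme. MSCs and fibroblasts in culture commonly carry stress fibres built from the same proteins, while smooth muscle myosin heavy chain, desmin and myocardin are known mainly from muscle. H3K4me3 lies at the start of genes that are active or poised, and H3K27ac lies at active promoters and enhancers.

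The start of 7 of the 10 members carried both marks: Acta2, Tagln, Cnn1, Myl9, Tpm1, Tpm2 and Srf. Myocd carried H3K4me3 alone, and Des and Myh11 carried neither. Without the lowest-scoring 25% of each list, 4 members had both marks, and H3K4me3 at a start fell from 8 members to 4, with Tagln, Cnn1, Tpm2 and Myocd losing it. The shares of coding genes given below are for the unfiltered lists. The filtered counts therefore have no background here, and whether the loss is particular to the members is unknown. A mark was counted at a start when a peak called at either oxygen level lay within 1000 bp of any annotated start of the gene. Among all coding genes, 36.5% had both marks at a start, 22.4% had H3K4me3 only and 39.9% had neither. In the wider windows, 8 of 10 members held an H3K27ac peak against 55.2% of coding genes, and 9 of 10 held an H3K4me3 peak against 69.7%. For the members, every one of these calls was made at both oxygen levels. No member had an H3K27ac peak of 1 oxygen level only in its window, where 5.81% of coding genes had one: 4.7% had a hypoxia-only peak and 1.15% a normoxia-only peak. With 10 members, a count of 0 lies near that background. The lists hold positions and a score but no values per library, so the depth and the spread between replicates are unknown, no test between the oxygen levels could be made, and a mark on fewer cells cannot be told apart from less of it per cell.

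The member windows held 26 distinct peak intervals: 11 with both marks, 9 with H3K27ac alone and 6 with H3K4me3 alone. The map of the 10 loci shows each of them at its distance from the gene start.

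**Figure D1:**
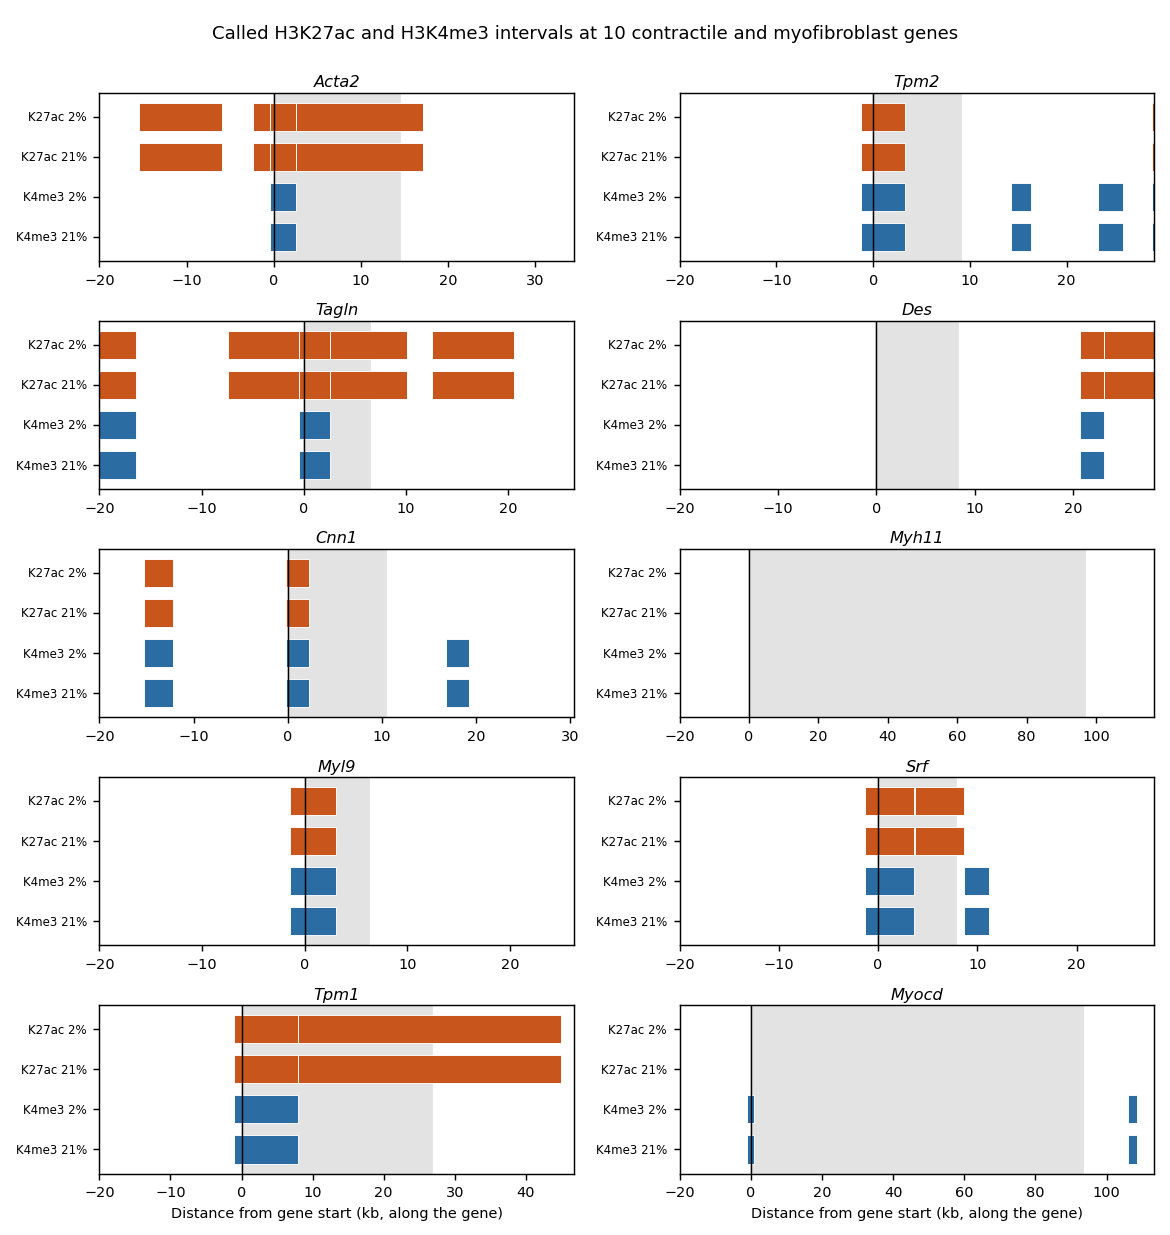
Called intervals of H3K27ac (orange) and H3K4me3 (blue) at 2% and 21% oxygen around each of the 10 genes, against the distance from the gene start in kb, drawn along the direction of transcription. The rows of 2% and 21% oxygen are identical for each mark, and, with the gene body in grey and its start as a black line, the longest block lies over Tpm1 and the Myh11 window is empty.

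Acta2 encodes smooth muscle alpha-actin, the classic marker of myofibroblasts, and lies on the minus strand at chr19:34241090-34255590 (ENSMUSG00000035783.9). Its start lay in a 3000 bp interval with both marks (chr19:34253001-34256000), whose H3K27ac score was 137 at both oxygen levels and whose H3K4me3 score was 132 at both. The score is the authors' value per peak, from 50 to 160 or at a top value of 1000. H3K27ac alone went on from there in both directions, over a 14500 bp interval along the gene body and into Stambpl1 (chr19:34238501-34253000, scores 81 in hypoxia and 80 in normoxia) and over a 2000 bp interval in front of the start (chr19:34256001-34258000, scores 124 and 117). Joined, these 3 touching intervals formed a 19500 bp H3K27ac domain, at percentile 94.0 of the joined domains of the hypoxia list, where the median domain was 4000 bp. A separate H3K27ac interval of 9500 bp lay at -15410 to -5911 bp from the start (chr19:34261501-34271000), in no coding gene. In all, 29000 bp, or 53.2% of the Acta2 window, were in H3K27ac.

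The 250 bases before the RefSeq start of Acta2 (GRCm38.p6, minus strand, chr19:34255374-34255623) are shown because they hold 2 elements that differ from the CArG box at 1 of its 6 middle letters. The elements are in capitals, at -84 to -75 and at -34 to -25 from that start, and both lie inside the interval with both marks.
Acta2: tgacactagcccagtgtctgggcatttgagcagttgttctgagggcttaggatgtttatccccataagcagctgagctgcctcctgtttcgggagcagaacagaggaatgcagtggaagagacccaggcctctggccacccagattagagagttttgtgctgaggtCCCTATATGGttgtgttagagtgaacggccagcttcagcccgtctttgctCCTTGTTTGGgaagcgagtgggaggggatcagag
No element with the full CArG box was found in this stretch. Such relaxed matches were present in 9.58% of the 21263 coding promoters of the RefSeq table, taken from 250 bases before to 50 after the start.

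Tagln encodes transgelin (SM22-alpha), an actin-binding protein of smooth muscle, and lies on the minus strand at chr9:45929619-45936058 (ENSMUSG00000032085.5). Its start interval (chr9:45933501-45936500, 3000 bp) had the top H3K27ac score of 1000 in both lists, while its H3K4me3 score was 55 in both, near the lowest score of 50. Within its chromosome, that H3K4me3 peak stood at percentile 0.894 of the list. H3K27ac flanked the start on both sides, over 7500 bp of gene body and downstream sequence (chr9:45926001-45933500, scores 71 in hypoxia and 58 in normoxia) and over 7000 bp in front of it (chr9:45936501-45943500, over Sidt2, scores 93 and 65). The joined domain was 17500 bp wide, at percentile 92.8 of the hypoxia list, and 62.6% of the Tagln window was in H3K27ac. The top H3K27ac score was thus limited to the 3000 bp at the start, where the H3K4me3 peak was 1 of the lowest-scoring of its chromosome, and the flanks scored lower. The window also held an 8000 bp H3K27ac interval in Pcsk7 and part of a 4000 bp interval with both marks at the start of Sidt2.

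Cnn1 encodes calponin 1, the smooth muscle form of an actin-binding protein, and lies on the plus strand at chr9:22099216-22109630 (ENSMUSG00000001349.5). It had both marks at its start in a single 2500 bp interval (chr9:22099001-22101500), and no H3K27ac flanked it. The H3K27ac score was 51 in both lists, 1 above the lowest score, at chromosome percentile 1.47 in hypoxia and 1.36 in normoxia. The H3K4me3 score was 77 at both oxygen levels, at chromosome percentile 6.97. Of the 7 starts with both marks, that of Cnn1 had the lowest H3K27ac score and the narrowest H3K27ac domain. The other intervals of its window lay at the starts of Ecsit, with both marks, and Elof1, with H3K4me3 alone.

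Myl9 encodes the regulatory light chain of smooth muscle and non-muscle myosin and lies on the plus strand at chr2:156775420-156781658 (ENSMUSG00000067818.6). Its window held 1 interval, of 4500 bp at the start (chr2:156774001-156778500), with both marks, an H3K27ac score of 1000 in both lists and an H3K4me3 score of 125 in both. The upstream stretch of Myl9 (GRCm38.p6, plus strand, chr2:156775214-156775463) is shown because it holds a full CArG box at -161 to -152 and, at -99 to -90, a match with 1 changed middle letter. Both are in capitals.
Myl9: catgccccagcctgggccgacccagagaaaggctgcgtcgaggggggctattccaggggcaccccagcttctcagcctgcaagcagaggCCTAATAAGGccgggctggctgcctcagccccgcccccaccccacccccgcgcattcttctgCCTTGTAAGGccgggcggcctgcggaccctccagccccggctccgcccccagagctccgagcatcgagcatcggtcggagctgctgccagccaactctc
Myl9 was also the member closest to a peak of 1 oxygen level only. An 11000 bp hypoxia-only H3K27ac interval (chr2:156731001-156742000, score 78, chromosome percentile 28.9) lay within Dlgap4, ending 33420 bp in front of the Myl9 start and so outside its window. Whether that interval bears on Myl9 was not tested.

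Myh11 encodes the heavy chain of smooth muscle myosin, the defining gene of mature smooth muscle cells, and lies on the minus strand at chr16:14194535-14291372 (ENSMUSG00000018830.10). Its window of 136838 bp, the longest of the 10, held no peak of either mark in any of the 4 lists. The nearest peak of each mark lay 24629 bp from a Myh11 start. Both myosin genes were therefore alike in the 2 oxygen levels and unlike each other: Myl9 had both marks and Myh11 had none.

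Tpm1 and Tpm2 encode tropomyosins alpha and beta, which lie along actin filaments and set the access of myosin. Tpm1 (chr9:67022590-67049406, minus strand, ENSMUSG00000032366.15) has 16 annotated starts, all inside a 9000 bp interval with both marks (chr9:67041501-67050500) whose H3K27ac score was 1000 in both lists. An H3K27ac interval of 37000 bp followed without a gap, over the rest of the gene and beyond its end (chr9:67004501-67041500, scores 81 in hypoxia and 76 in normoxia). The joined domain of 46000 bp was the widest of the 10 genes, at percentile 98.9 of the hypoxia list, and 68.8% of the Tpm1 window was in H3K27ac. The H3K4me3 peak of Tpm1 was also the widest of the members, with its 9000 bp at percentile 99.5 of the joined H3K4me3 domains, whose median was 2500 bp.

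Tpm2 (chr4:43514711-43523765, minus strand, ENSMUSG00000028464.16) had a single interval with both marks at its start (chr4:43520501-43525000, 4500 bp). Its H3K27ac score was 1000 in hypoxia and 105 in normoxia, and its H3K4me3 score was 121 in both. No H3K27ac flanked it, so that 9.77% of the Tpm2 window was in H3K27ac, including the start of Ccdc107 at its far end. The starts of Arhgef39 and Car9 in the same window had H3K4me3 alone. The 2 tropomyosin genes thus shared the start state and differed in extent, with 46000 bp of joined H3K27ac over Tpm1 and 4500 bp over Tpm2.

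Des encodes desmin, the intermediate filament protein of muscle, and lies on the plus strand at chr1:75360329-75368579 (ENSMUSG00000026208.9). Neither mark was called at its start or in its body. The H3K27ac of its window, 7579 bp, lay at Speg, a kinase gene of striated muscle. It came from a 2500 bp interval with both marks at a Speg start (chr1:75381001-75383500) and an 18500 bp interval of H3K27ac alone over Speg (chr1:75383501-75402000). The nearer of them lay 20672 bp from the Des start, and whether either bears on Des was not tested. The stretch in front of Des (GRCm38.p6, plus strand, chr1:75360042-75360291) is shown as the start of a structural member without a mark, a choice made after its values were seen, and it holds no CArG box.
Des: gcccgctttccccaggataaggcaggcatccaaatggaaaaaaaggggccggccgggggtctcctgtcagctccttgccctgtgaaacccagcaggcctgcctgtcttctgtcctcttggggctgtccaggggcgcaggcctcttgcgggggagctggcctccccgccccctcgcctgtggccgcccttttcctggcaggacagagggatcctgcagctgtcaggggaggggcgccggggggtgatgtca
From 250 bases before to 50 after the start, its GC content was 65.3% and its ratio of observed to expected CpG was 0.344.

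Srf encodes serum response factor itself and lies on the minus strand at chr17:46548329-46556175 (ENSMUSG00000015605.6). Its start interval with both marks (chr17:46552501-46557500, 5000 bp) had H3K27ac scores of 134 and H3K4me3 scores of 131 at both oxygen levels. A touching 5000 bp interval of H3K27ac alone (chr17:46547501-46552500, score 129 in both lists) covered the rest of the gene, which gave a joined domain of 10000 bp at percentile 82.8. The remaining interval of the window, with H3K4me3 alone, lay at the start of Cul9. The upstream stretch of Srf (GRCm38.p6, minus strand, chr17:46556163-46556412) is shown because it holds 2 full CArG boxes, in capitals, at -82 to -73 and -62 to -53.
Srf: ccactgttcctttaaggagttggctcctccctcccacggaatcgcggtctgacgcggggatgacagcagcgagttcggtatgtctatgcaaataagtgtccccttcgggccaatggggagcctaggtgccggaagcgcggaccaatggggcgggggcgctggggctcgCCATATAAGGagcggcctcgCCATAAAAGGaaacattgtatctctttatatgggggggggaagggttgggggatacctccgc
Myl9 and Srf were the 2 of the 7 members with a RefSeq promoter that held a full CArG box there, while 1.52% of all coding promoters held one.

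Myocd encodes myocardin, the coactivator of SRF in smooth and cardiac muscle, and lies on the minus strand at chr11:65176561-65269989 (ENSMUSG00000020542.18). A 2000 bp interval of H3K4me3 alone covered its start (chr11:65269001-65271000), with a score of 62 at both oxygen levels and chromosome percentile 3.31. Neither list had H3K27ac anywhere in the 133429 bp window, and the nearest H3K27ac peak lay 516512 bp from a start. The other H3K4me3 interval of the window was at the start of Arhgap44. Srf and Myocd, the pair of regulators, thus differed in both lists of H3K27ac.

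The extent of H3K27ac varied widely among the members. Covered bases ran from 0 for Myh11 and Myocd to 46000 bp for Tpm1, with a median of 6540 bp, against a median of 2500 bp over all coding genes. The median window was 49735 bp for the members and 57425 bp for all coding genes. The windows of Myh11, Myocd and Tpm1 were longer than the coding median, that of Tpm1 with 66817 bp. Acta2, Tagln and Tpm1 stood at percentiles 96.5, 96.5 and 98.6 of coding genes by covered bases, Srf at 82.6 and Cnn1, Myl9 and Tpm2 between 66.7 and 70.5. Des stood at 77.8, wholly through the intervals at Speg. Covered bases thus count neighbouring genes too: of 5500 bp in the Cnn1 window, 3000 bp lay at the Ecsit start. The Tagln and Tpm2 windows also took in H3K27ac at neighbouring genes. By the width of the H3K4me3 peak at the start, the order was different. Tpm1 and Srf led with 9000 and 5000 bp, Myl9 and Tpm2 followed with 4500 bp, Acta2 and Tagln had 3000 bp, Cnn1 had 2500 bp and Myocd had 2000 bp. Acta2 and Tagln thus had wide H3K27ac around H3K4me3 peaks of 3000 bp, at percentile 69.6 of the peaks of the hypoxia list.

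The oxygen levels were next compared by the score at the 20 H3K27ac intervals, all of which were shared. In hypoxia the score was higher at 8 intervals, and in normoxia it was higher at 3, while 9 had equal scores. Over all 14614 shared H3K27ac intervals, 39.9% were higher in hypoxia and 16.6% were higher in normoxia, so the members' 8 of 20 and 3 of 20 lay close to the background. The H3K4me3 score was equal at both oxygen levels in 17 of 17 member intervals. The whole H3K4me3 lists were also nearly alike, with 14606 peaks in hypoxia and 14603 in normoxia. Both had a median score of 129 and 14.14% of peaks at the top score. The share of equal scores over all shared H3K4me3 intervals is not given here, so equality is not read as particular to the members. Because the score reached its top value in very different shares of the peaks from chromosome to chromosome, each score was also ranked among the peaks of its own list and chromosome, from 0 to 100, with ties given their middle rank. The plot of score ranks shows both ranks of each interval.

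**Figure D2:**
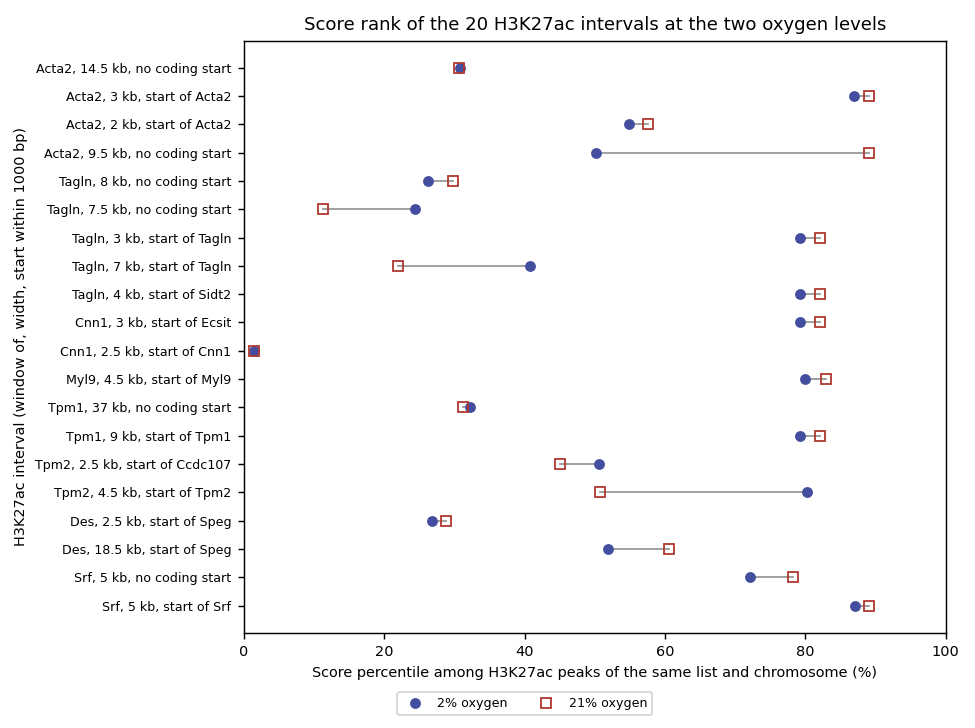
Percentile of the score of each of the 20 H3K27ac intervals among the H3K27ac peaks of the same list and chromosome, at 2% oxygen (filled circles) and 21% oxygen (open squares). Most pairs lie within a few points, while the 9500 bp Acta2 interval lies farther right in normoxia (50.2 against 89.1) and the Tpm2 start farther right in hypoxia (80.3 against 50.7).

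On this scale the median difference, hypoxia minus normoxia, was -2.42 points over the members and -1.92 over all shared intervals. The largest differences of the members went in opposite directions. The interval in front of Acta2 had a score of 112 in hypoxia and 137 in normoxia, or percentiles 50.2 and 89.1. Its difference of -38.9 points stood at percentile 0.462 of all shared intervals, toward the normoxia side. The start interval of Acta2 had the same score at both oxygen levels, so the Acta2 locus moved in rank at its upstream interval and little at its start.

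At Tpm2 the start interval moved the other way, from percentile 50.7 in normoxia to 80.3 in hypoxia, a difference of 29.6 points at percentile 95.9 of all shared intervals. This interval was picked as the largest difference toward hypoxia among the 20. Its hypoxia rank is the middle rank of all chromosome 4 peaks at 1000, which are 39.5% of that chromosome's peaks. The change from 105 to the top value of 1000 is not a fold change, since no score lies between 160 and 1000. The intervals on either side of the Tagln start were also ranked higher in hypoxia, by 13.2 points (scores 71 and 58) and by 18.9 points (scores 93 and 65), while the start itself was at the top score in both lists. These differences stood at percentiles 86.4 and 90.7. The interval over Speg in the Des window had a difference of -8.68 points (scores 111 and 120). No difference has a replicate check, and none was made by a call that appeared or vanished between the lists.

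The base composition of the starts was then compared for the 7 members with an entry in the RefSeq promoter table, which are Acta2, Cnn1, Myl9, Tpm1, Tpm2, Des and Srf. Tagln, Myh11 and Myocd were not analysed here. Starts rich in CpG are known to carry H3K4me3 in most cell types, and many muscle genes have starts poor in CpG. Acta2 and Cnn1 had both marks with an observed to expected CpG ratio of 0.270 and 0.239, at percentiles 29.2 and 26.3 of all coding promoters. Among promoters with a ratio from 0.25 to 0.5, 16.4% had both marks and 64.3% had neither, and from 0 to 0.25, where Cnn1 lies, 3.76% had both. The Cnn1 start peaks ranked low in hypoxia, at chromosome percentile 1.47 for H3K27ac and 6.97 for H3K4me3. Without the lowest-scoring 25% of each list, Cnn1 had neither mark at its start. Des, with a ratio of 0.344, had the more common state of its class. Myl9 and Tpm2 had ratios of 0.583 and 0.546, in a class where 45.1% had both marks. Tpm1 and Srf had ratios of 0.823 and 0.837, in a class where 64.9% had both. The plot of promoter composition places the 7 members among other promoters.

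**Figure D3:**
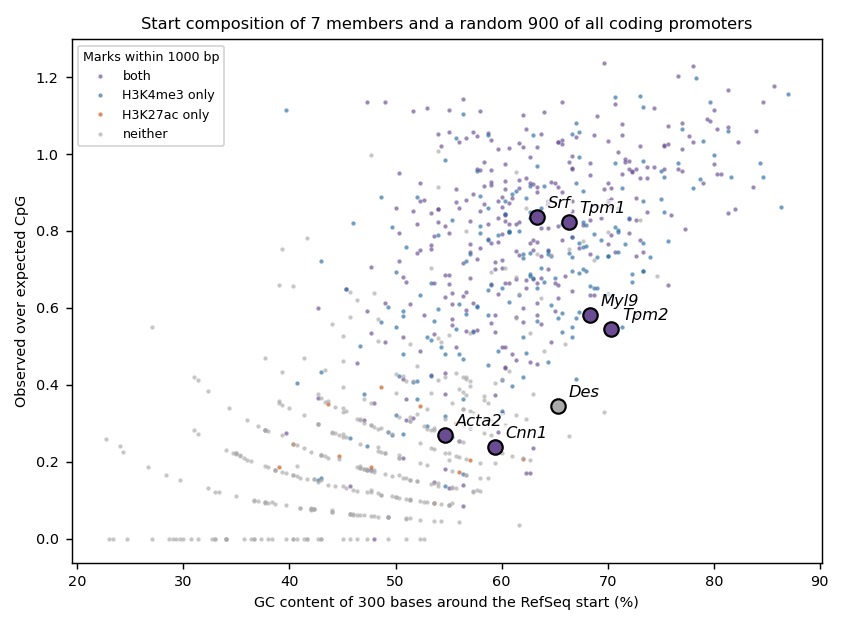
GC content (%) against the ratio of observed to expected CpG from 250 bases before to 50 after the RefSeq start, for 7 members (large points) and a random sample of all coding promoters (small points), coloured by the marks within 1000 bp. Acta2 and Cnn1, at 0.270 and 0.239, are coloured for both marks in a region where most points are grey, and Des, at 0.344, is grey.

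The CArG box was also counted in the called intervals of these 7 members, on both strands. In the 9 member intervals with both marks there were 9 boxes, or 2.47 per 10 kb, and 6 of the 9 intervals held at least 1. Over all 7276 such intervals the density was 0.534 per 10 kb and 15.75% held a box. In the 6 member intervals with H3K27ac alone there were 11 boxes, or 1.27 per 10 kb, and 5 of the 6 held at least 1, against 0.574 per 10 kb and 32.8% over all 7338. The share of intervals with a box depends on their width, and these 6 spanned 86500 bp together. The shares were not matched for width. Most boxes of the second kind lay over Tpm1, with 5 in 37000 bp, and over Speg, with 3 in 18500 bp. The 3000 bp start interval of Acta2 held 2 full boxes outside the printed stretch, and the start interval of Srf held 3, of which 2 are printed. A box is a match of letters and not a measured binding site. The E-box CANNTG, the element of myogenic and other helix-loop-helix factors, was found in the promoters of 6 of the 7 members, all but Srf, where 69% of all coding promoters held one.

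Related genes were then counted in the same way, from written lists. Of 28 other genes of the contractile apparatus and its adhesions, 22 had both marks at a start, 3 had H3K4me3 only (Lmod1, Ppp1r14a and Synpo2), 1 had H3K27ac only (Mylk) and 2 had neither. The 2 without a mark were Actg2 and Actc1, the actins of visceral smooth muscle and of heart. The non-muscle actins Actb and Actg1 and the non-muscle myosins Myh9 and Myh10 had both marks. Of 15 cofactors, regulators and targets of SRF, 13 had both marks, including the myocardin relatives Mrtfa and Mrtfb, and Elk1 and Fhl1 had H3K4me3 only. Of 12 genes of the myofibroblast matrix and surface, 8 had both marks, Cthrc1 had H3K4me3 only, and Postn, Fap and Lrrc15 had neither. All these counts take a peak of either oxygen level. A hypoxia-only H3K27ac peak lay at the start of Tnc, Thy1 and Arhgef1, which are counted with both marks. The shares of the start states are drawn in the bar chart by gene group.

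**Figure D4:**
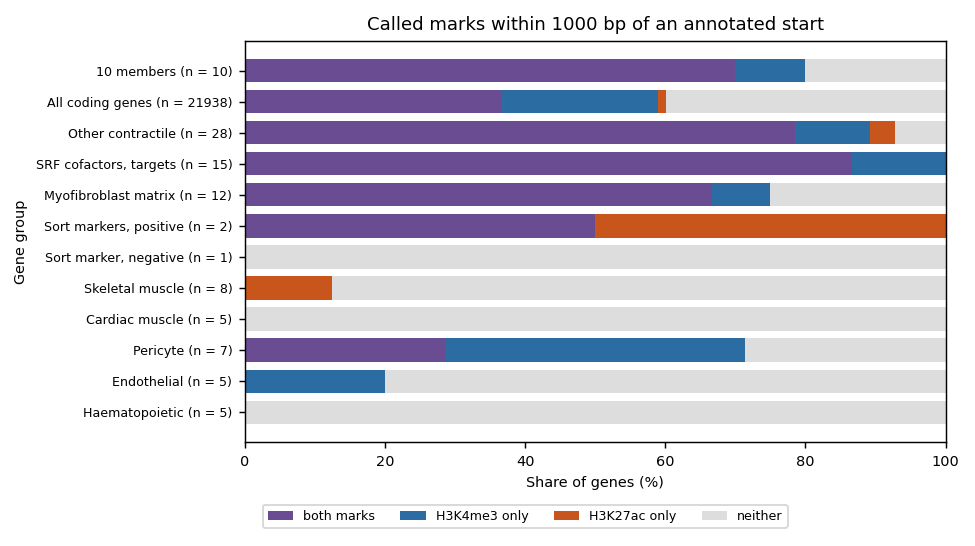
Share of genes (%) in each group with both marks, H3K4me3 only, H3K27ac only or neither within 1000 bp of an annotated start, with the number of genes beside each group. A mark called at either oxygen level is counted. The bar of the 10 members reaches 70% for both marks, that of all coding genes 36.5%, and those of skeletal, cardiac, endothelial and haematopoietic markers are grey over 80% or more of their length.

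Among the genes of these 3 lists, 8 had an H3K27ac peak of 1 oxygen level in their window: 4 of the 28 contractile genes, 2 of the 15 of the SRF list and 2 of the 12 of the matrix list, where 5.81% of all coding genes had one. A hypoxia-only peak lay at the start of Tnc (tenascin C, score 52), Thy1 (a surface glycoprotein, score 55) and Arhgef1 (an activator of RhoA, score 57), each with H3K4me3. Within Mylk, the kinase of myosin light chain, an 11000 bp hypoxia-only peak had a score of 51, and over the end of Flna, an actin cross-linker, an 18500 bp hypoxia-only peak had a score of 57. The hypoxia-only peak in the Zyx window lay at the start of Epha1 (score 56). Normoxia-only peaks lay over Ccn2, a matricellular target of SRF, from 2059 to 4058 bp after its start (score 53), and in Tnni1 in the Csrp1 window (score 51). All 8 had scores from 51 to 57, near the lowest score of 50, and how many would be called from single libraries is unknown.

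The labelled cell type was checked by the genes of the sort. Pdgfra, which encodes CD140a, had both marks at its start, Ly6a, which encodes Sca-1, had H3K27ac only, and Ptprc, which encodes CD45, had neither mark and no H3K27ac in its window. Of 8 skeletal muscle genes none had H3K4me3 at a start, 7 had neither mark and Tnnt3 had H3K27ac only. All 5 cardiac genes had neither mark at a start. Of 7 pericyte genes, Cspg4 and Pdgfrb had both marks, with the Cspg4 start called for H3K27ac in hypoxia only (score 51), Kcnj8, Mcam and Notch3 had H3K4me3 only, and Rgs5 and Abcc9 had neither. Of 5 endothelial genes Kdr had H3K4me3 only and 4 had neither, and all 5 haematopoietic genes had neither. The part of other cells in the marks of the 10 members was not tested.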

How the data were processed

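By the account of the methods, reads were aligned to mm10 (bowtie2), freed of duplicates (Picard) and passed by the authors to chromstaR, which called hypoxic and normoxic cells together in its differential mode. The deposited files are 4 peak lists whose score values the authors gave per peak, from 50 to 160 or 1000, with no stated definition. All boundaries were multiples of 500 bp, and intervals of different lists were identical or disjoint, so the lists share 1 segmentation. Inputs have no list. Sequencing depth is unknown.

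Gene bodies and starts came from GENCODE M21 (basic) and promoters from RefSeq (GRCm38.p6), of which 21263 of 21263 matched the genome. Touching intervals of a list were joined into domains. A peak of 1 oxygen level shared no base with the other list of its mark. The CArG box was searched with its 6 middle letters A or T. Python 3.11.15 scripts were tested on simulated intervals. The members and gene lists were chosen with earlier results of these data known, and all 88 other listed genes matched. Named were all members, neighbours with a start in a member interval or a body under one, the sort markers, and listed genes with a peak of 1 oxygen level. Others were named after their values were seen. Alternatives changed the window, the distance from a start, the score filter, the joining of intervals, the score scale and the motif.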

Additional observations from a re-analysis of the deposited data

How the results depend on the processing

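No paired analysis was possible because both libraries of a group went into 1 list and no value comes from a test. For the same reason no library could be left out. The count of members with an H3K27ac peak of 1 oxygen level only rose from 0 to 1 with 50000 bp on each side (Myl9). It also rose to 1 without the lowest-scoring 25% of each list, or of each chromosome of each list, because the interval in front of Tagln then stayed in the hypoxia list alone. Without the lowest-scoring 25% of each list, 4 members in place of 8 had H3K4me3 at a start and 4 in place of 7 had both marks. Tagln, Cnn1, Tpm2 and Myocd lost H3K4me3. Filtered by chromosome, 5 had H3K4me3 and Tpm2 kept it. The 20 H3K27ac intervals became 11 in gene bodies only, 13 with 5000 bp on each side, 38 with 50000 bp and 13 when intervals within 1000 bp were joined. Within 1000 bases on each side of the start, 4 members in place of 2 had a full CArG box. These counts have no share over all coding genes at the same setting beside them, so whether the changes are particular to the members is unknown. The share of intervals with the higher score in hypoxia, 40%, ran from 25% to 50% over its alternatives. The filter and rank by chromosome and the relaxed CArG box were chosen after seeing the data. Peaks were called jointly over the oxygen levels.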

Other observations

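The share of H3K27ac peaks at the top score of 1000 differed by chromosome, from 0% to 42.2% in the hypoxia list and from 0% to 38.1% in the normoxia list, against 22.2% and 18.9% over each list. For H3K4me3 it ran from 0% to 86.9% in both lists. The scores of 1000 at Tagln, Myl9, Tpm1 and Tpm2 and the scores from 129 to 137 at Acta2 and Srf, which lie on different chromosomes, are therefore not comparable as numbers. By chromosome percentile in hypoxia, the start intervals of Srf (87.1) and Acta2 (87.0) stood above those of Tpm2 (80.3), Myl9 (80.0), Tagln and Tpm1 (both 79.3), of which the last 4 are tied with all other peaks at the top score of their chromosome.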
